A study of Mus musculus with 8 samples.

Results

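The genes described here encode 34 coagulation and complement proteins that hepatocytes secrete into blood plasma, listed by symbol for their function and read on mouse liver arrays of 2 arms and 4 days. They were split by role into 13 procoagulant factors, 6 anticoagulants and enzymes or inhibitors of fibrinolysis, and 15 complement proteins. Of the 34, 31 had a probe set of their own and were read, each on the brightest of its probe sets. All 31 passed the filter on low signals, which kept 12112 of 18193 genes on the array. The carboxypeptidase Cpb2 and complement component C3 were not analysed here, and C4b was left out because its probe set is assigned to C4a as well. The mean signals of the 31 over all arrays ran from 864 to 42504.

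Every mouse carried a floxed Met gene and a Cre recombinase that tamoxifen switches on throughout the body (Metff/ff:ERCre+/+). The MET KO + EGFRi arm received 5 injections of tamoxifen, each of 100 µl at 10 mg/ml in corn oil, to delete Met. From 1 day before TCPOBOP its diet contained canertinib, which blocks the EGFR kinase, with a target of 80 mg/kg daily. Control littermates had corn oil alone, without tamoxifen or canertinib. Both arms received TCPOBOP, a mitogen for mouse hepatocytes that acts through the nuclear receptor CAR, by gavage at 3 mg/kg at least 5 days after the last injection, and livers were taken on days 0, 1, 2 and 5. MET binds hepatocyte growth factor and EGFR binds epidermal growth factor, and the comparison of arms asks what their combined loss changes. Tamoxifen, Cre activity, loss of Met and canertinib differed together between the arms and cannot be told apart. The labels used here give neither the age nor the number of mice in a pool, and do not say if mice of day 0 were dosed with TCPOBOP.

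RNA of pooled livers was read on 1 array for each arm and day, so no group had a replicate. Array medians over all probe sets were 224 to 251, and actin gave 3′ to 5′ ratios of 1.57 to 2.36, with the highest value in MET KO + EGFRi on day 5. To check the tissue, 7 hepatocyte markers were listed. Of these, 6 were measured and all 6 passed the filter, with summed signals of 216915 to 374900 in control, against 217090 to 344372 in MET KO + EGFRi. In bulk liver, fewer cells of a type and less RNA per cell cannot be told apart. The number of arrays limits the precision.

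Coagulation is a chain of proteases, most of them made by hepatocytes as inactive precursors, that ends with thrombin (from F2) cutting fibrinogen into fibrin. Antithrombin and protein C restrain the chain, and plasmin, made from plasminogen, dissolves the clot. Complement is a parallel protease cascade that tags microbes and ends in a membrane pore built from C5 to C9, and fibrinogen and several complement genes are known targets of interleukin 6 and STAT3 in the acute phase response of the liver.

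Averaged over the 4 days, the members as a group stood slightly higher in MET KO + EGFRi livers, and none passed the test. The median log2 difference between arms was 0.20 over the 31 members, against 0.0021 over all 12112 genes, with 22 members higher and 9 lower. It was 0.14 for other secreted hepatocyte proteins (15 of 17 higher) and 0.14 for hepatocyte markers (5 of 6 higher). For 394 other genes with a mean signal of at least 8159, the median of the members, it was 0.00025. With limma, 0 of 31 members had an adjusted p under 0.05, beside 70 of 12112 genes, or 0.578 percent (0.413 percent higher and 0.165 percent lower). Without adjustment, 9 members had a p under 0.05, beside a share of 12.1 percent of all genes. Higher in MET KO + EGFRi were 7 of them (all genes: 6.12 percent), namely the fibrinogen chains Fga, Fgb and Fgg, the kininogen Kng1 and the complement proteins Hc, C8a and C8b. Lower were 2 (all genes: 5.99 percent), the pore protein C9 and the mannose-binding lectin Mbl2. Of the 394 other genes with a mean signal of at least 8159, 55 were higher and 58 lower at that unadjusted threshold in limma. The lowest adjusted p of any member was 0.128, for Fgb. Without either of the day 2 arrays the median of the members was 0.10. Without any array of days 0 or 1, 5 members had an unadjusted p under 0.05 in limma. The share of all genes in those fits is not given here.

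Given the spread between days, as moderated by limma over all genes, the intervals bounded most of the mean differences. Differences of single days could lie outside them, and the spread between animals was not measured. Standard errors on the log2 scale ran from 0.12 to 0.42 with a median of 0.16, and the 95 percent interval of the difference lay within 2-fold either way for 27 of 31 members and within 1.5-fold for 13. It included 0 for 22 members. The members outside 2-fold were C2, C8a, C8b and C9. By role, the median log2 difference was 0.23 for the 13 procoagulant factors (10 higher), 0.22 for the 5 measured anticoagulants and fibrinolysis proteins (4 higher) and 0.19 for the 13 measured complement proteins (8 higher). Within complement, values spread from -0.71 for C9 to 0.73 for C8b, the whole range of the members.

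**Figure D1:**
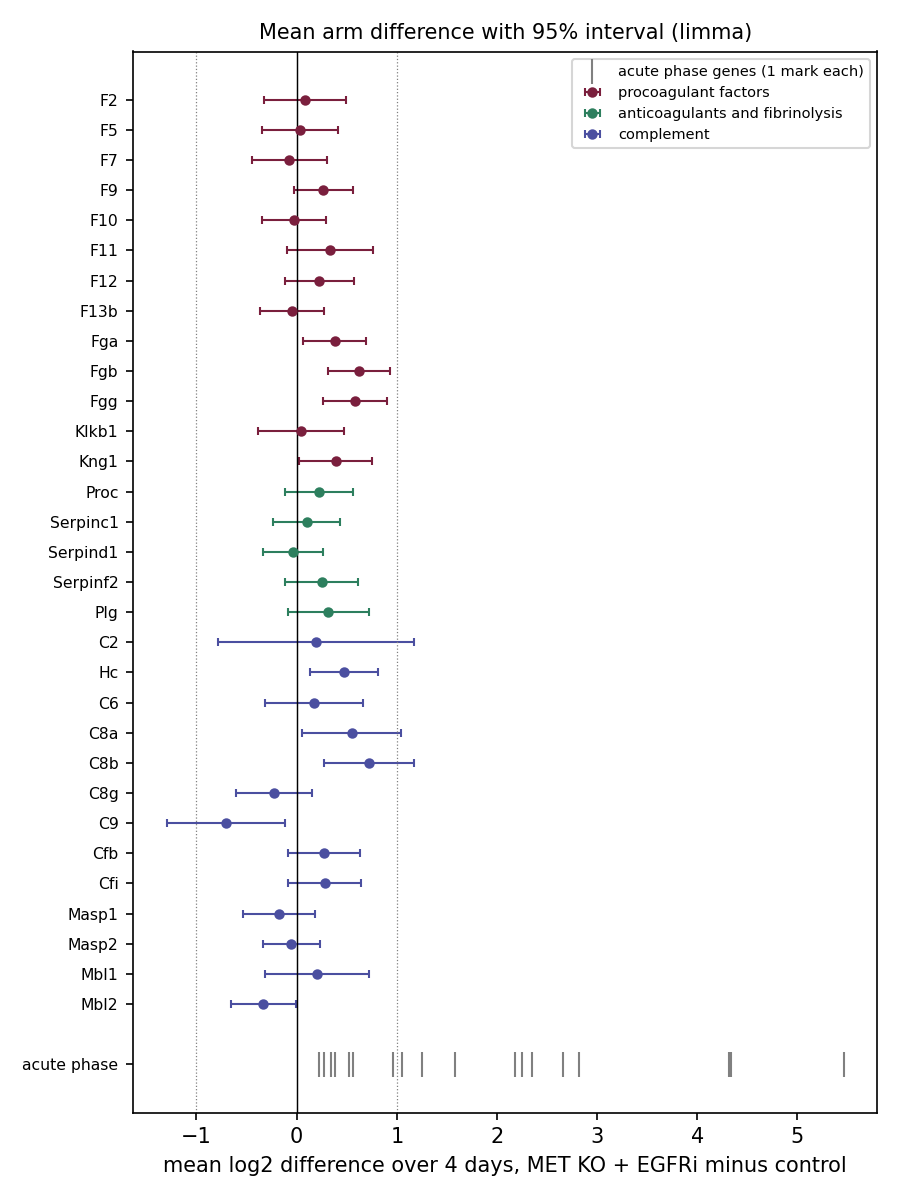
Mean log2 difference between the arms (MET KO + EGFRi minus control) for each of the 31 members, with the 95 percent interval from limma over 8 arrays and with members coloured by role. The intervals of 22 members include 0, that of C2 is the widest, and no member had an adjusted p under 0.05.

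The 3 fibrinogen chains, which assemble into the protein that thrombin turns into fibrin, were higher in MET KO + EGFRi on every day. Fgb, the β chain, had signals of 29371, 35392, 28857 and 38775 on days 0, 1, 2 and 5 in control, against 48707, 57675, 44972 and 51755 in MET KO + EGFRi. Every MET KO + EGFRi value lay above every control value, by a mean log2 difference of 0.62 ± 0.13 (SE from limma), or 1.54-fold, with a limma adjusted p of 0.128. The γ chain Fgg had 27153, 32899.6, 28251 and 42539.8 in control, against 43365, 52383, 45392 and 52518 in MET KO + EGFRi, where again no values overlapped (log2 difference 0.58, SE 0.14, adjusted p 0.164). Fga, the α chain, had 32262, 38393, 32051 and 45687 against 41953, 49123, 47996 and 52569.8. Its arms overlapped, since the control array of day 5 stood above the day 0 array of MET KO + EGFRi, and the log2 difference was 0.38 (SE 0.14, adjusted p 0.328).

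Among all members, signals of the arms did not overlap for 3, all higher in MET KO + EGFRi (Fgb, Fgg and Hc), beside a share of 3.5 percent of all genes, and for 0 that were lower (all genes: 2.75 percent). Higher on 4 of 4 days were 8 members, F9, Fga, Fgb, Fgg, Plg, Hc, C8b and Cfi, against 9.92 percent of all genes, and lower on 4 of 4 days was 1, Mbl2, against 10.3 percent. Of the 394 other genes with a mean signal of at least 8159, 34 were higher and 20 lower without overlap. On 4 of 4 days, 72 of the 394 were higher and 64 lower. The difference between arms for Fgb was present at day 0 already, at 0.73, and was 0.42 at day 5. For Fgg the same days gave 0.67 and 0.30. These are among the brightest signals: Fgb was the highest of all probe sets on the day 1 array of MET KO + EGFRi, at 57675, and stood at 48707 against a highest signal of 49297 on that of day 0. Whether such signals were still proportional to RNA was not tested.

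**Figure D2:**
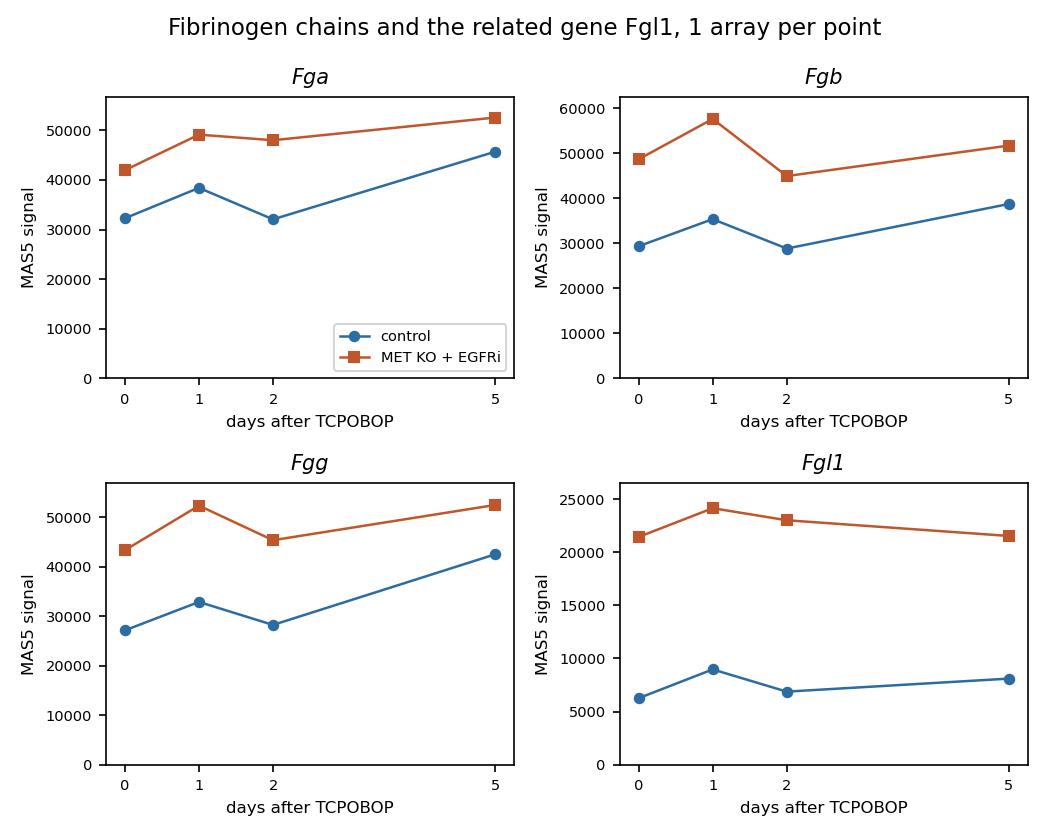
Signals (linear MAS5 scale, from 0) of the fibrinogen chains Fga, Fgb and Fgg by day, with 1 array per point and lines joining the days of an arm. All 4 MET KO + EGFRi points of Fgb (44972 to 57675) and of Fgg (43365 to 52518) lie above all 4 control points, whose highest values are 38775 and 42539.8, while Fga overlaps.

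The fibrinogen genes lie side by side in the order Fgg, Fga, Fgb, and C8b lies next to C8a. Since these neighbours had the largest mean differences between arms among members that lie side by side, the 250 bases upstream of each annotated start are shown from RefSeq (build GRCm38.p6), 5′ to 3′ in the direction of transcription. Capitals mark matches on either strand to 4 motifs, TTCNNNGAA (STAT type), CTGGGAA (an interleukin 6 response element), TTGCNNAA (C/EBP type) and GTTAAT (part of an HNF1 site); a CTGGGAA match can lie inside a STAT type match.
Fga, chr3:83025903-83026152, plus strand: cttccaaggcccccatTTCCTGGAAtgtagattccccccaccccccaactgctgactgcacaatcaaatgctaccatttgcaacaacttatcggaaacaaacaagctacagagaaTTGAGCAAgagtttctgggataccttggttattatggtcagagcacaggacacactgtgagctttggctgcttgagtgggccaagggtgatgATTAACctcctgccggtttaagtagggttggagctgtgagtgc
Fgb, chr3:83049864-83050113, minus strand: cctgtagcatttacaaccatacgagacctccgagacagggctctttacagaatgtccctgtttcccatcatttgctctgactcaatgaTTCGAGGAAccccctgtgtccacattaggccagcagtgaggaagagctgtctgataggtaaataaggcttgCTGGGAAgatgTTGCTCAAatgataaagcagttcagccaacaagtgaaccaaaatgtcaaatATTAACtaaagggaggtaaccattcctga
Fgg, chr3:83007474-83007723, plus strand: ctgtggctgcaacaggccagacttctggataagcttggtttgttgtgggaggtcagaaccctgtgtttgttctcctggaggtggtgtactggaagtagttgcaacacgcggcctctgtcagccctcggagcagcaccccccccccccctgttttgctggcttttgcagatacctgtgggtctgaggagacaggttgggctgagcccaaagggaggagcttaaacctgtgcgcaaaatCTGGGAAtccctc
C8a, chr4:104876399-104876648, minus strand: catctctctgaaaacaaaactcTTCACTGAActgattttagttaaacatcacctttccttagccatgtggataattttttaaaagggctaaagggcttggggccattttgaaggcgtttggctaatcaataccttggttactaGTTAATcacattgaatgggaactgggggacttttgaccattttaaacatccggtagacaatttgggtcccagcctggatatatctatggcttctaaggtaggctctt
C8b, chr4:104766067-104766316, plus strand: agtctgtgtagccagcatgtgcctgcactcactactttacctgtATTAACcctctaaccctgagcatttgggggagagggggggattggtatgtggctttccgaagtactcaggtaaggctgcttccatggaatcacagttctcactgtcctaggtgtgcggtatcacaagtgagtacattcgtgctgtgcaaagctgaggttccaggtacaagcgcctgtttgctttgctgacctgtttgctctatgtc

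All 4 motifs occurred upstream of Fgb. The STAT type match lay 162 to 154 bases before the start, that of the interleukin 6 element 91 to 85, the C/EBP type match 80 to 73 and the HNF1 type match 29 to 24. Fga had 3 of the 4, a STAT type match 234 to 226 bases before its start, a C/EBP type match at 135 to 128 and an HNF1 type match at 43 to 38. Only the interleukin 6 element, at 13 to 7 bases, was matched upstream of Fgg. C8a held a STAT type match at 228 to 220 and an HNF1 type match at 107 to 102, and C8b an HNF1 type match at 206 to 201. Promoters were given for 26 of the 34 listed members, in 27 windows, and these include C3, which was not read on the arrays. TTCNNNGAA occurred in 5 of these and in 7.02 percent of all 32851 windows, CTGGGAA in 4 and 9.1 percent, TTGCNNAA in 7 and 9.56 percent, and GTTAAT in 6 and 6.43 percent. A match describes letters in the window and does not show binding. F9 and Masp2 also held both the STAT type and the interleukin 6 motifs, with log2 differences of 0.27 and -0.05 between arms.

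The vitamin K-dependent members, whose precursors need γ-carboxylation to bind membranes, had small mean differences between the arms. Their median log2 difference was 0.08 over F2, F7, F9, F10 and Proc, with 3 higher and 2 lower. The days were not alike: on days 0, 1, 2 and 5 the median was -0.03, -0.03, 0.52 and -0.14, with 2, 1, 5 and 2 higher. F10, the protease that activates prothrombin, had signals of 8121, 11420, 8492 and 12615 in control, against 7150, 10549.9, 10695 and 11406 in MET KO + EGFRi. Its arms overlapped throughout, and its log2 difference of -0.03 (95 percent interval -0.35 to 0.30) was the smallest of all members. Of its other probe sets, weaker by several fold, 1 gave -0.08 and 1 gave 0.13. Prothrombin (F2) differed by 0.08 (interval -0.33 to 0.49), factor VII (F7), which starts the cascade with tissue factor, by -0.07 (-0.44 to 0.30), and factor IX (F9), the protein missing in haemophilia B, by 0.27 (-0.03 to 0.57). F9 had 7599.7, 7726, 6607 and 6979 in control, against 8834, 8901, 9518 and 7657 in MET KO + EGFRi. It was higher in MET KO + EGFRi on each day, and the lowest MET KO + EGFRi value, that of day 5, lay just below the highest control value, that of day 1.

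Factor V (F5), the cofactor of F10, had 6952, 6643, 5650 and 5799 against 5695, 5502, 7878 and 6796. It was lower in MET KO + EGFRi on days 0 and 1 and higher on days 2 and 5, which left a mean log2 difference of 0.04. Its other probe set gave -0.09. F13b, the carrier subunit of the fibrin-linking factor XIII, differed by -0.05 (interval -0.37 to 0.27).

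The contact system starts clotting on charged surfaces and releases bradykinin from kininogen. Its 4 members all had a positive mean difference, with a median log2 value of 0.28. On days 0, 1, 2 and 5 the median was -0.10, 0.33, 0.66 and 0.21, with 0, 3, 4 and 4 members higher in MET KO + EGFRi. Kininogen (Kng1) had signals of 17208, 15035, 13336 and 15319.6 in control, against 16589, 19642, 21636 and 22153 in MET KO + EGFRi. The MET KO + EGFRi array of day 0 lay below the control array of that day, and the other 3 MET KO + EGFRi arrays lay above all control arrays (log2 difference 0.39, SE 0.16, adjusted p 0.376). A dimmer probe set of Kng1 had 13465, 12128, 10941 and 12027 against 10916, 11309.7, 15535 and 14267, with a log2 difference of 0.09. Mice also have a close copy, Kng2, and which RNAs each probe set reads was not tested.

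F11, the protease that activates F9, had 1230.4, 618, 553 and 684 in control, against 1108, 801, 1135 and 783 in MET KO + EGFRi. The control array of day 0 was the highest of all 8, and on days 1, 2 and 5 the MET KO + EGFRi values were above those of control (mean log2 difference 0.33, SE 0.19, adjusted p 0.537, and 0.12 without either day 2 array). F11 lies next to Klkb1, the gene of plasma prekallikrein, which differed by 0.04 (interval -0.39 to 0.48). F12, which starts the contact cascade, differed by 0.23 (-0.12 to 0.57).

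Among the inhibitors of coagulation and the proteins of fibrinolysis, plasminogen (Plg) differed most, with signals of 24647, 31295, 22826 and 39005 in control, against 25073, 37336, 42256 and 41911 in MET KO + EGFRi. It was higher in MET KO + EGFRi on each day, by log2 differences of 0.02, 0.25, 0.89 and 0.10, so that most of the mean of 0.32 (SE 0.17, adjusted p 0.524) came from day 2. Antithrombin (Serpinc1), the main inhibitor of thrombin, had 32225, 41479, 36590.1 and 53188 against 33881, 40066, 49257 and 51234. The arms overlapped and the higher arm changed between days (log2 difference 0.10, interval -0.24 to 0.43). Heparin cofactor II (Serpind1), a further thrombin inhibitor, had 9347, 13295, 12752 and 13590.3 against 10138, 12174, 10973 and 14364 and a log2 difference of -0.04 (-0.34 to 0.26), with the arms intermingled. Protein C (Proc), which inactivates factors V and VIII, differed by 0.22 (-0.11 to 0.56), and the plasmin inhibitor Serpinf2 by 0.25 (-0.11 to 0.61).

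Of the complement proteins that start the cascade, the lectin pathway members went both ways. The lectin and classical members had a median log2 difference of -0.05, with 2 of 5 higher. Mbl2, a lectin that binds microbial sugars, had signals of 18435, 18260, 21299.5 and 21659 in control, against 14150.2, 12023, 20038 and 18101 in MET KO + EGFRi. It was lower in MET KO + EGFRi on each day, but the MET KO + EGFRi value of day 2 was above the control values of days 0 and 1 (log2 difference -0.33, SE 0.14, adjusted p 0.394). Mbl1, the other mouse mannose-binding lectin, had 3463, 3159, 3112 and 4301 against 6548, 3721, 3791 and 2803. It was higher in MET KO + EGFRi on days 0, 1 and 2, most at day 0, and lower on day 5 (log2 difference 0.20, SE 0.22).

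The lectin pathway proteases were read by probe sets that disagreed. Masp1 had 3622, 3584, 3399.7 and 3297 in control, against 2508, 3087, 2812 and 4061 in MET KO + EGFRi on its brightest probe set, lower on days 0, 1 and 2 and higher on day 5 (log2 difference -0.18). Its 4 other probe sets gave log2 differences from -0.09 to 0.33. Masp2, which cuts C4 and C2, had 2184, 2022, 1971 and 2069 against 2357, 1835, 1915 and 1870.1 and a log2 difference of -0.05, while its other probe set, with 1642, 1239, 1233 and 1141 against 1524, 1723, 1784 and 1942, gave 0.40. C2, a subunit of the C3 convertase, was singled out after its values were seen because its standard error of 0.42 was the largest of all members. Its brightest probe set, of a kind that can bind related RNAs, had 2686, 4425, 1509.6 and 4585 against 5943, 3563, 4113 and 1639.6, higher in MET KO + EGFRi on days 0 and 2 and lower on days 1 and 5. The other probe sets of C2 varied less, with 1729, 1087, 1069.9 and 1568 against 1811, 1429, 1199.7 and 1512 on the one and 1258, 1048, 1118 and 1473 against 1567, 1373, 1706 and 1854 on the other. C2 values therefore rest on the probe set read.

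In the alternative pathway, the convertase subunit factor B (Cfb), whose gene lies next to C2, differed by 0.27 (interval -0.09 to 0.63). The protease factor I (Cfi), which inactivates C3b and C4b, had 20773, 21081, 18123 and 24357 in control, against 21546, 23278, 30867 and 27086 in MET KO + EGFRi. It was higher in MET KO + EGFRi on each day, by 0.77 on day 2 and by at most 0.15 on the other 3 (log2 difference 0.28, SE 0.16, adjusted p 0.545).

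The terminal complex held both the largest positive and the largest negative difference of the members. C8b, the β chain of C8, had signals of 1869.7, 3526, 1963 and 1855 in control, against 4784, 4023, 3829.8 and 2567 in MET KO + EGFRi. It was higher on each day, most at day 0 by a log2 difference of 1.32, and the arms overlapped because the control array of day 1 exceeded the MET KO + EGFRi array of day 5 (mean 0.73, SE 0.19, adjusted p 0.201). The neighbouring gene of the α chain, C8a, had 4491, 7403, 3251 and 3131 against 9389, 6801, 6685 and 3699.9. On 3 of 4 days it was higher in MET KO + EGFRi, with differences of 1.05 at day 0 and 1.02 at day 2 but -0.12 at day 1 (mean 0.55, SE 0.21, adjusted p 0.365). C8g, the lipocalin chain of C8, differed by -0.22 (interval -0.61 to 0.16).

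C5 (Hc), whose cleavage starts the pore, had 8129.6, 11738, 9606 and 8099 in control, against 12509.9, 12252, 13982 and 13076 in MET KO + EGFRi. Each MET KO + EGFRi value was above each control value, with the highest control array at day 1 closest (log2 difference 0.48, SE 0.15, adjusted p 0.261). C9, the protein that polymerises into the pore, went the other way on 3 of 4 days, with 12921, 11141, 5204 and 4979 against 8078, 5506, 6375 and 1795. It was higher in MET KO + EGFRi only on day 2, and the arms overlapped (mean log2 difference -0.71, SE 0.25, adjusted p 0.329). The mean was -0.46 without either day 5 array and -1.04 without either day 2 array. C6 differed by 0.17 (interval -0.32 to 0.66).

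**Figure D3:**
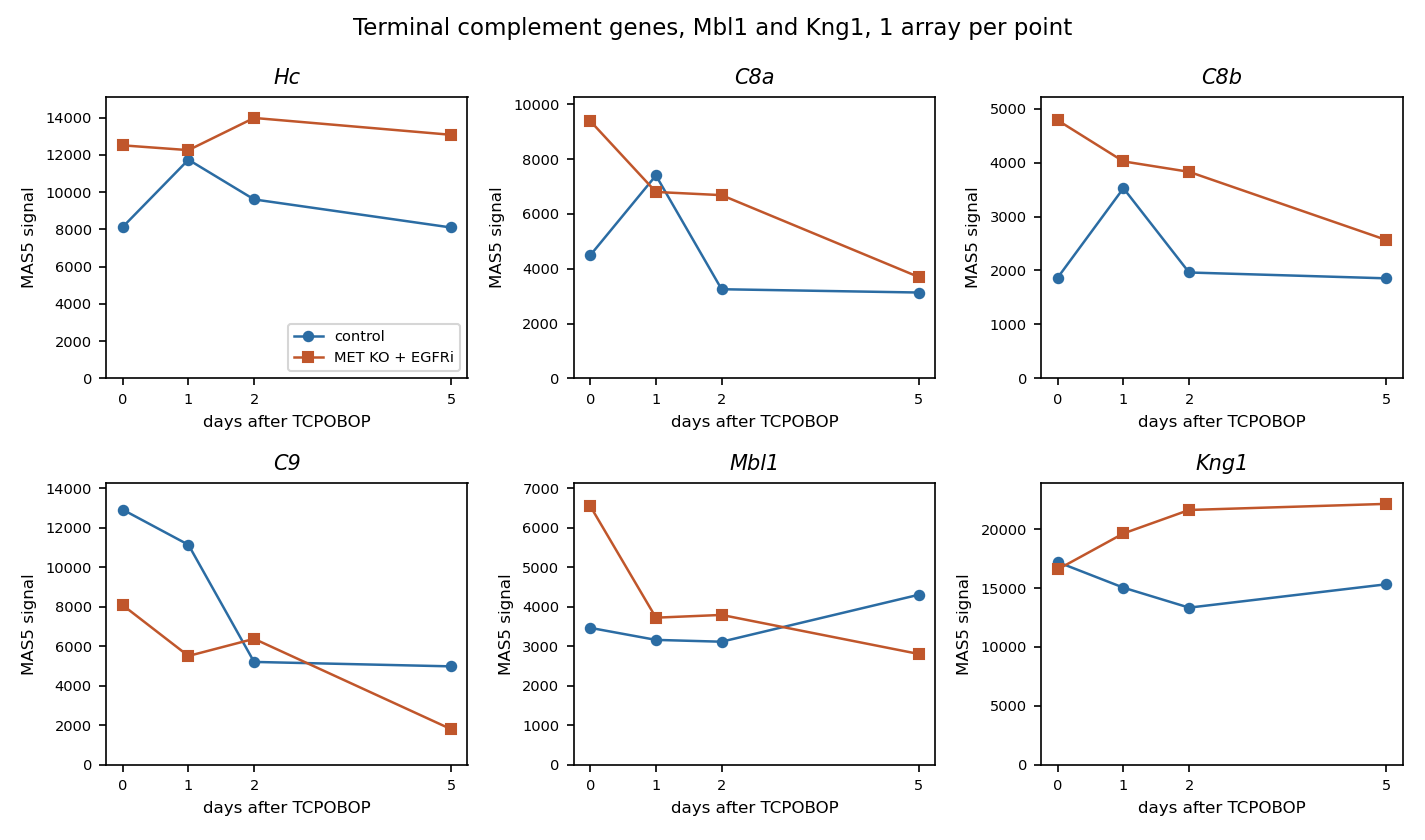
Signals (linear MAS5 scale, each panel from 0) of Hc, C8a, C8b, C9, Mbl1 and Kng1 by day and arm, with 1 array per point. C8a and C8b are highest in MET KO + EGFRi at day 0 (9389 and 4784), while C9 is lowest in MET KO + EGFRi at day 5 (1795).

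Read day by day, with 1 array on each side and no test, the members stood apart between the arms mainly on day 2. On days 0, 1, 2 and 5 the median log2 difference over the 31 members was 0.07, -0.03, 0.58 and 0.13. Higher in MET KO + EGFRi on those days were 18, 14, 26 and 19 members, against 46.8, 50.8, 52.2 and 48.6 percent of all genes. On day 2 all 13 procoagulant factors were higher (median 0.60), as were 4 of 5 anticoagulants and fibrinolysis proteins (0.61) and 9 of 13 complement proteins (0.32). Single members ran on that day from -0.27 for Masp1 to 1.40 for C2.

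Other hepatocyte products were also higher on that day. Of 17 measured other secreted hepatocyte proteins, 16 were higher in MET KO + EGFRi on day 2, their median being 0.60, and so were all 6 hepatocyte markers, 5 of which are also among the 17, with a median of 0.64. The summed signal of these markers was 217442 in control and 339623 in MET KO + EGFRi on that day, against 216915 and 217090 on day 0. Among 394 other genes with a mean signal of at least 8159, the median of the members, 244 were higher on day 2 with a median of 0.16, and over all genes the median was 0.02. After quantile normalisation of the arrays the day 2 median of the members was 0.50, with 25 higher. The part of the control array of day 2 or of the MET KO + EGFRi array of day 2 in this was not tested, and without both arrays the mean difference over the members had a median of 0.10.

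**Figure D4:**
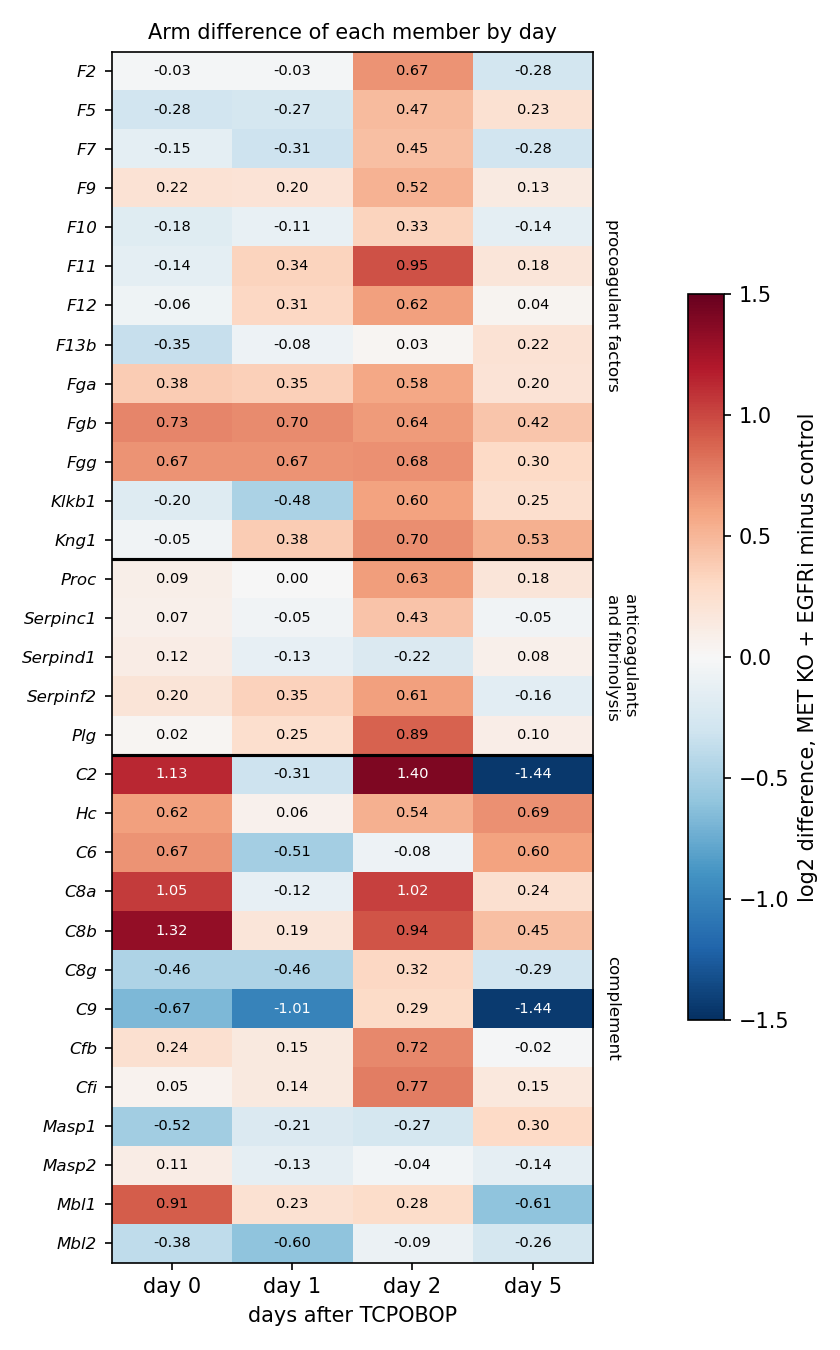
Log2 difference between the arms (MET KO + EGFRi minus control) for each of the 31 members on days 0, 1, 2 and 5, with 1 array on each side and members ordered by role. The day 2 column is positive for 26 members and for all 13 procoagulant factors, and C8a and C8b stand out at day 0 (1.05 and 1.32).

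**Figure D5:**
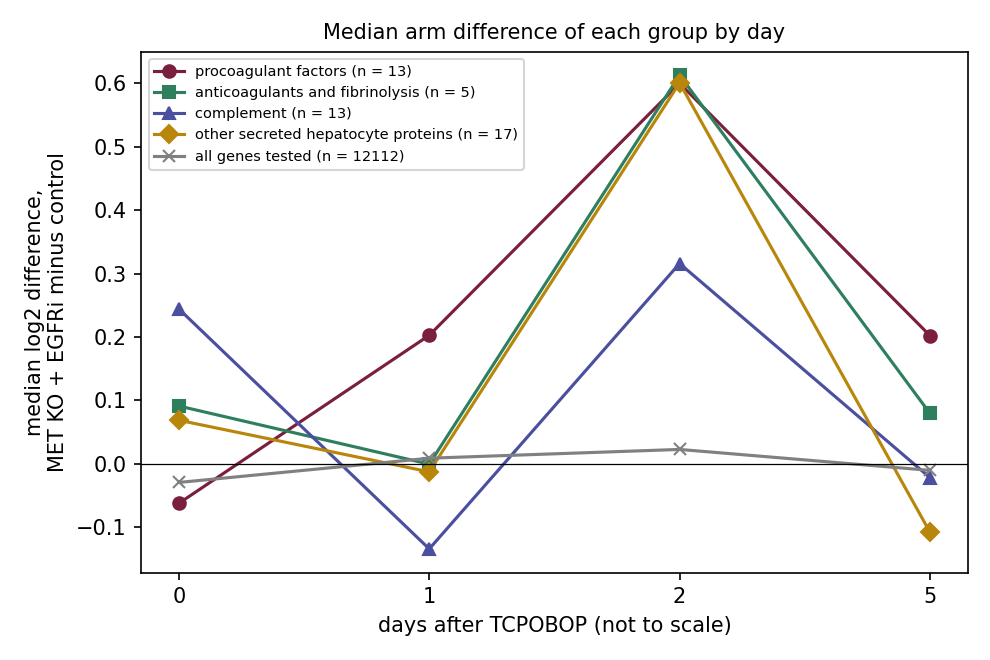
Median log2 difference between the arms (MET KO + EGFRi minus control) on days 0, 1, 2 and 5, evenly spaced, for the 3 role groups of members, for other secreted hepatocyte proteins and for all genes tested, with 1 array on each side. On day 2 the medians are 0.60 for procoagulant factors, 0.61 for anticoagulants and fibrinolysis, 0.32 for complement and 0.60 for other secreted proteins, while that of all genes is 0.02.

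Differences of at least 2-fold on a single day were few. At day 0, 3 members were at least 2-fold higher in MET KO + EGFRi (C2, C8a and C8b; all genes: 2.64 percent) and 0 lower (all genes: 2.18 percent). At day 1 these numbers were 0 (all genes: 2.89 percent) and 1, C9 (all genes: 2.63 percent). Day 2 had 2 higher, C2 and C8a (all genes: 2.88 percent), and 0 lower (all genes: 2.03 percent). Day 5 had 0 higher (all genes: 2.25 percent) and 2 lower, C2 and C9 (all genes: 2.16 percent). These counts moved by 1 or 2 members with the pseudocount, probe set or scaling: C9 at day 1 was not counted with the pseudocount at the median or after quantile normalisation. C2 rests on its brightest probe set alone, and on all 4 days its other probe sets were less than 2-fold apart.

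The response to TCPOBOP was measured as the mean of days 1, 2 and 5 minus day 0 over both arms. All arrays of days 1, 2 and 5 came from dosed mice, so TCPOBOP, gavage and time cannot be told apart. In MET KO + EGFRi, the time since canertinib began also grew with the days. The members had a median of 0.06 on the log2 scale, or -0.15 after quantile normalisation of the arrays, so that its direction turned with the scaling. limma called 0 of 31, beside 59 of 12112 genes or 0.487 percent. Without adjustment, 7 members had a p under 0.05, beside 10.1 percent of all genes. That count was 3 after quantile normalisation, 4 with no filter on low signals or without either day 1 array, 2 without the control array of day 0 and 1 without the day 0 array of MET KO + EGFRi. Of the 7, 5 stood above day 0, among them the anticoagulants and fibrinolysis proteins Plg (0.49), Serpinc1 (0.44), Serpinf2 (0.43) and Serpind1 (0.39), and factor X (F10, 0.50). The 2 below day 0 were C9 (-0.98, SE 0.29, adjusted p 0.312) and F11 (-0.61, SE 0.21, adjusted p 0.392). Of the 394 other genes with a mean signal of at least 8159, 125 stood above day 0 and 16 below it at an unadjusted p under 0.05 in limma. The share of all genes at that threshold is given only for the main fit.

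C9 was lower than at day 0 on all 3 later days in both arms, and by day 5 had gone from 12921 to 4979 in control and, in MET KO + EGFRi, from 8078 to 1795. F11 stood at 553 to 684 on the later days in control, from 1230.4 at day 0, and at 783 to 1135 in MET KO + EGFRi, from 1108. F10 was above day 0 on all 6 later arrays, as was Serpinc1, with its highest signals at day 5 in both arms (53188 and 51234). Mbl1, also among the 6 members with the largest mean response (-0.46, SE 0.26), went from 6548 at day 0 to 2803 at day 5 in MET KO + EGFRi and the other way, from 3463 to 4301, in control.

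The group medians of this response differed between roles. It was 0.43 for anticoagulants and fibrinolysis proteins, 0.05 for procoagulant factors and -0.08 for complement, beside 0.40 for other secreted hepatocyte proteins, 0.22 for the 394 other genes of like signal and -0.02 for all genes. The contrast between roles was not tested. Changes from day 0 within an arm share its day 0 array. On days 1, 2 and 5 in control, 19, 10 and 16 of 31 members were above day 0 (all genes: 46.5, 45.6 and 50.5 percent), and in MET KO + EGFRi 15, 23 and 20 (all genes: 52.0, 51.6 and 52.3 percent).

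At least 2-fold above day 0 in control was only C6, at day 1, with 1, 0 and 0 members on days 1, 2 and 5 (all genes: 2.58, 2.58 and 2.82 percent). At least 2-fold below day 0 in control were 0, 2 and 1 members on those days (all genes: 2.27, 2.73 and 2.57 percent), F11 and C9 at day 2 and C9 at day 5. In MET KO + EGFRi, 4 complement members were at least 2-fold below day 0 at day 5, C2, C8a, C9 and Mbl1 (all genes: 2.7 percent), and 0 were on days 1 and 2 (all genes: 1.76 and 2.09 percent). None of the 31 members was 2-fold above it on any day (all genes: 1.6, 2.13 and 2.82 percent). The fall of C2 by day 5 in MET KO + EGFRi rests on its brightest probe set. Its other probe sets went from 1811 to 1512 and from 1567 to 1854 in that arm.

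Whether the change from day 0 to the later days differed between the arms was tested by an interaction, which had 2 residual degrees of freedom. It cannot tell a different response to TCPOBOP from the time since canertinib began, which passed in MET KO + EGFRi only. With limma, 0 of 31 members were called and 0 of 12112 genes (0.0 percent), and without adjustment 0 members had a p under 0.05 against 4.48 percent of all genes. That count was 4 without either day 2 array, 1 without either day 5 array, 1 after quantile normalisation and 2 after centring each array on its median. In those alternatives the share of all genes is not given here. For Mbl1 the response in MET KO + EGFRi minus that in control was -0.94 on the log2 scale (SE 0.42), and for C8b it was -0.80 (SE 0.37). The limma adjusted p of both was 0.999. C2 had the largest value, -1.24, with an error of 0.93.

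Other genes of the same pathways were read from lists chosen by function. Of 17 other liver coagulation genes, 13 were measured and 1 was called by limma, higher in MET KO + EGFRi: Fgl1, a fibrinogen-like protein that hepatocytes secrete. Fgl1 had 6255, 8966, 6873 and 8101 in control, against 21444, 24154, 23019.8 and 21538 in MET KO + EGFRi, with no overlap (log2 difference 1.58, SE 0.13, adjusted p 0.00365), and it was called whichever array was left out. Next came Serpina10, the inhibitor of factor X that works with protein Z (1.03, adjusted p 0.103), and protein Z itself (Proz, 0.43, adjusted p 0.369). The list's median was 0.19, with 11 higher. Fgl1 is also on the acute phase list.

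None of the 6 measured of 9 endothelial coagulation genes was called, and their median was -0.09. The values farthest from 0 were those of thrombomodulin (Thbd, 0.67), tissue plasminogen activator (Plat, -0.38) and S100a10 (-0.19), and 1 of the 6 had an unadjusted p under 0.05 in limma. The 7 genes of the vitamin K cycle and of protein export were all measured, with 0 called and 0 at an unadjusted p under 0.05 in limma. Ggcx, the carboxylase that the vitamin K-dependent members need, differed by 0.01. The largest of the list were Cyp4f14 (-0.58), Nqo1 (0.37) and Vkorc1l1 (0.21).

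Of 15 other complement components 11 were measured, with 0 called and 5 at an unadjusted p under 0.05 in limma (4 higher, 1 lower). The subunits of C1q, which macrophages make, differed by 0.96 (C1qa), 0.57 (C1qb) and 0.74 (C1qc), properdin (Cfp), made by myeloid cells, by 0.79 and the collectin Colec12 by -0.77. C1qa had 1969, 1183, 1356 and 2917 in control, against 2861, 2841, 4172 and 4280 in MET KO + EGFRi. Of 17 complement regulators and receptors 14 were measured and 0 called (4 higher at an unadjusted p under 0.05 in limma). The C1 inhibitor Serping1 differed by 0.51, Cd59a, which blocks the pore, by 0.42 and Cpn2, of the carboxypeptidase that inactivates anaphylatoxins, by 0.38. The medians of these lists were 0.34 and 0.22.

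Markers of other cells were read in each array, and their part in the member values was not tested. All 8 Kupffer cell and macrophage markers were on average higher in MET KO + EGFRi (1 called, Cd5l, and not with any 1 array left out, at adjusted p of 0.0732 to 0.321), with summed signals of 13183 to 28302 in control, against 22409.9 to 41344 in MET KO + EGFRi. Of the 8 neutrophil and monocyte markers, 7 were measured and 3 were called higher (S100a8, S100a9 and Prtn3), with sums of 3302 to 3473 and 7542 to 8446. Platelet and megakaryocyte markers, of which Gp9 was below the filter, had sums of 2931 to 3683 and 3889 to 4687. None of the platelet, endothelial, stellate or cholangiocyte markers was called by limma (3 had an unadjusted p under 0.05), and the sums of the last 3 lists overlapped between arms. The sums of endothelial markers were 5516 to 8182 and 6799 to 9340.3, those of stellate markers 3890 to 5294 and 4219 to 5160, and those of cholangiocyte markers, where Krt7 and Krt19 were below the filter, 924 to 2032 and 938 to 1600.

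Regulators of these genes and other secreted proteins were read as well. Among 15 transcription factors and signalling genes known to act on liver secretory genes 14 were measured and 1 was called higher in MET KO + EGFRi, Cebpd, an acute phase factor of the C/EBP family (1.52, adjusted p 0.0174). That call was lost without any array of days 0, 1 or 2, at adjusted p of up to 0.135. The STAT3 inhibitor Socs3 differed by 1.07 (adjusted p 0.31) and Stat3 by 0.96 (adjusted p 0.167). All 18 acute phase genes were measured and on average higher in MET KO + EGFRi. Of these 10 were called (6 without either day 0 array and 5 without either day 1 array), the serum amyloids Saa1 (4.32), Saa2 (5.46) and Saa3 (2.18), Lcn2 (4.33), Orm1 (1.25), Orm2 (2.35), Serpina3n (2.82), Apcs (1.05), Lrg1 (2.66) and Fgl1. The median of the list was 1.41 against 0.20 for the members. Of 20 other secreted hepatocyte proteins 17 were measured and 1 was called, Itih3 (1.66, adjusted p 0.015, and 0.059 to 0.065 without an array of day 1 or 5), followed by Itih1 (0.99) and angiotensinogen (Agt, 0.85), and the list's median was 0.14. The median of the 3 fibrinogen chains was 0.58.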

How the data were processed

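The deposited intensity values, 1 MAS5 signal per probe set and array, were computed by the authors with MAS5 per the submitters' processing notes; its version is not given in the sources used here. The values are linear, and the mean of each array after trimming 2 percent at each end is 500. Of 45101 probe sets, 64 controls were left out. From the platform's gene table, 34945 of the others had 1 gene, 932 several and 9160 none. The log2 of the signal plus 71, the lower quartile, was used, which understates folds of weak genes. Each gene was represented by its brightest probe set and kept where the mean log2 value reached 8.24, the median of all probe sets. Signals of different genes are not comparable.

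limma 3.58.1 in R 4.3.3 modelled log2 signals by arm plus day over 8 arrays and 12112 genes (trend, 3 residual degrees of freedom, Benjamini-Hochberg adjustment over all genes, called at 0.05). The p-values measure the spread between pools of different days, which may be technical. Single days had no test, and 2-fold differences were counted. The members and lists were chosen with earlier results of these data known. Named with all arrays were the 12 members with the largest difference between arms, the 6 with the largest response, the 3 with the smallest difference and those with discordant probe sets; from each other list, called genes and the 3 largest differences. C2 and F9 were added after their values were seen. Alternatives are given in the closing section. Promoters came from RefSeq's table of GRCm38.p6, matched by symbol.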

Additional observations from a re-analysis of the deposited data

Results flagged for a closer look

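For 2 of 31 members, Kng1 and Masp1, the arms went opposite ways from day 0 on each of days 1, 2 and 5, as did 1194 of 12112 genes. Both were below day 0 in control and above it in MET KO + EGFRi. The other probe set of Kng1 did the same, but none of the other probe sets of Masp1 did so on each of these days. The response of Kng1 was higher in MET KO + EGFRi by a log2 value of 0.589 (limma, unadjusted p = 0.12, adjusted p = 0.999). For Masp1 the value was 0.457 (limma, unadjusted p = 0.225, adjusted p = 0.999). Neither difference in response passed the test, and both compare each arm with a day 0 array of its own.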

How the results depend on the processing

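Over 21 alternatives to the comparison of arms (pseudocount, filter, probe set, scaling, variance moderation, day term, days and arrays used), 0 members were called by limma and the lowest adjusted p of any member was 0.0744; as reported, 9 had an unadjusted p under 0.05. The number of members higher ran from 18 to 24. The difference kept its sign in all alternatives run for 19 members and changed it in at least 1 for 12, among them F10, F5, C2, Serpind1 and Mbl1. Leaving out 1 array gave a median of 0.10 to 0.29 over the members. Leaving out both day 2 arrays, chosen after seeing the data, gave 0.10 as well. With the day term, leaving out 1 array or both arrays of a day gives the same difference, so this match was fixed in advance. For the response to TCPOBOP, quantile normalisation moved the median from 0.06 to -0.15, and leaving out 1 array gave -0.016 to 0.205, the highest without the control array of day 0. For the difference in response the median over the arrays left out was -0.105 to 0.22, with 0 members called, and it could not be fitted without a day 0 array. Masp2 reversed to 0.40 (adjusted p = 0.379) where probe sets ending in _s_at, _x_at or _a_at were left out, which reads its other probe set. The adjusted p of Fgb ran from 0.0744 to 0.519 and that of Masp2 from 0.379 to 0.992. C2 ranged from -0.21 to 0.74 and C9 from -1.04 to -0.46. At 1.5-fold in place of 2-fold, 8, 2, 15 and 2 members were higher in MET KO + EGFRi on days 0, 1, 2 and 5 (all genes: 7.43, 8.67, 10.1 and 7.66 percent) and 1, 2, 0 and 3 lower (all genes: 8.17, 8.24, 7.9 and 7.78 percent). The number at least 2-fold higher on day 2 ran from 1 to 3 over the other alternatives. The labels give no replicate numbers; the arms were paired by day through the day term, and without it 0 members were called by limma and 5 had an unadjusted p under 0.05. The share of all genes at that threshold without the day term is not given here. Signal over background limits the members little, but 1 array per group leaves the spread between animals unmeasured.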
